A study of Caenorhabditis elegans with 4 samples.

Results

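The genes described here encode small heat shock proteins of Caenorhabditis elegans. The 10 genes were chosen as a family by name and looked up by gene symbol in the annotation of the array: sip-1, hsp-12.1, hsp-12.2, hsp-12.3, hsp-12.6, hsp-16.2, hsp-16.41, hsp-17, hsp-25 and hsp-43. Of these, 8 had a probe, 1 each and measured on all 4 arrays, among 14943 named genes in all. No probe was named hsp-16.2 or hsp-16.41, a neighbouring pair on chromosome V, and these 2 genes were not analysed here.

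RNA came from 4 preps of L4 larvae labelled glp-4, which is the stage before the adult, and each was set on a 2-channel array of its own against a wild-type reference of mixed stages. The labels name no allele, temperature, staging method or strain beyond this, and do not say how the preps were grown, so that p-values cover only the variation among these preps, which may be technical. The gene glp-4 is known from mutants whose germline fails to proliferate at the restrictive temperature, whereas a wild-type mixed-stage population holds embryos, all larval stages and adults with a germline. Genotype and stage therefore differ together between the RNA pools and cannot be told apart. Neither can fewer cells of a type and less RNA per cell. Growth temperature may also have differed between the pools, and its part cannot be told apart from these.

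Every value below is a log2 ratio, or is computed from one, read as glp-4 L4 over reference. The labels do not state that direction, which is called likely because channel 2 held the glp-4 RNA, so each "higher" and "lower" rests on it. The 4 arrays ran the same way: across genes, which are no independent replicates, Pearson's r of one prep with another was 0.74 to 0.90. The column medians lay between -0.12 and 0.02, and the SDs between 0.92 on prep 1 and 1.09 on prep 4. Intensities were not used here, so a ratio says nothing of how much transcript of one gene there was relative to another, and precision is limited by there being 4 arrays.

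Small heat shock proteins are chaperones that share an alpha-crystallin domain. They bind unfolding proteins without using ATP and hold them for refolding by the HSP70 system. In C. elegans some of them, above all those of the hsp-16 group, are known for a strong induction by heat through the transcription factor HSF-1, while others are made in unstressed animals in a tissue or at a stage of their own. The labels mention no heat or other stress.

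The family was split in glp-4 L4 animals. The genes sip-1, hsp-12.6 and hsp-12.3 were 6.95- to 27.9-fold lower than in the reference, and hsp-12.2, hsp-25, hsp-12.1 and hsp-17 were 1.43- to 3.19-fold higher. Only hsp-43 did not pass the test. In all, 7 of 8 genes differed from 0 (4 higher and 3 lower; limma, Benjamini-Hochberg adjusted p under 0.05 over 19989 items), against 45.0% of all items tested, 20.6% of them higher and 24.4% lower. The higher count was 3 with the title code shared by preps 3 and 4 as a random block and 2 without moderation of the variances. Each of the 8 genes had 1 sign on 4 of 4 preps, which 56.1% of the items on all 4 arrays also had.

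The family's median hid this split. The median of the 8 means was 0.02, beside -0.06 for all items tested, while the means spanned 6.47 log2 units. The SD over preps had a median of 0.37 in the family and ran from 0.20 for hsp-25 to 0.75 for hsp-12.6, where the median over all items on 4 arrays was 0.30.

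**Figure D1:**
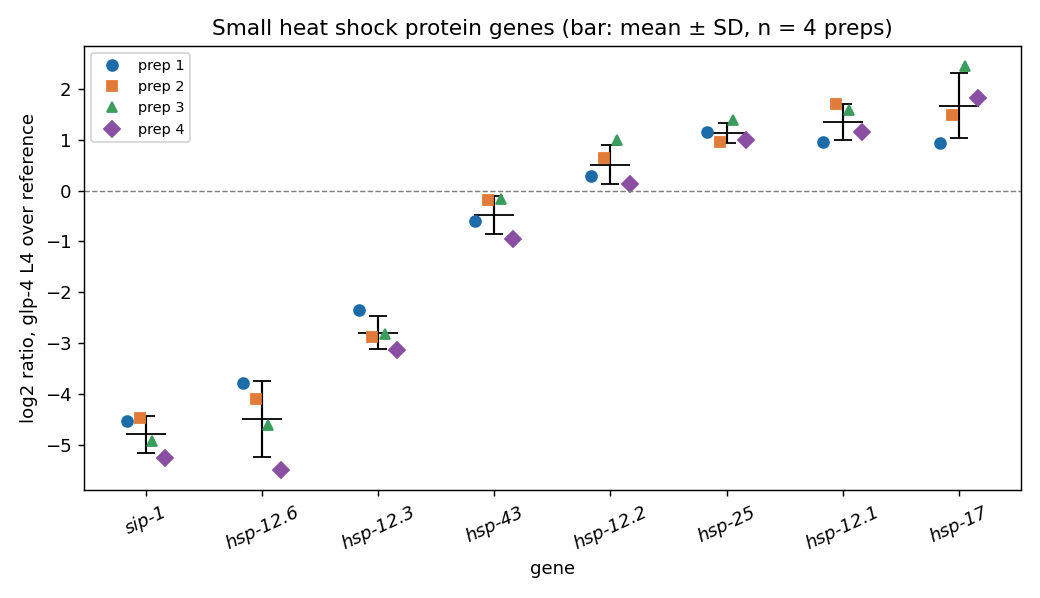
Log2 ratio of glp-4 L4 over reference (vertical axis) for the 8 measured small heat shock protein genes, ordered by mean. Points are the 4 preps, and bars are the mean ± SD. All 4 points of sip-1, hsp-12.6 and hsp-12.3 lie below -2.3, and all 4 points of hsp-25, hsp-12.1 and hsp-17 lie above 0.9.

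The gene sip-1, on chromosome III, encodes a small heat shock protein known from oocytes and embryos. Its log2 ratio was -4.54, -4.47, -4.92 and -5.27 on preps 1 to 4. The 4 values lay within 0.79 of each other, all far below 0. The mean was -4.80 ± 0.37 (SD, n = 4; 95% interval -5.19 to -4.41; limma adjusted p = 1.5e-06), or 27.9-fold lower in glp-4 L4 animals. Among the 14940 named genes tested, sip-1 had the 9th lowest mean, and 37 genes had a mean of -4 or less. Intensities were not used, so it is not known whether the glp-4 signal was near background here or for hsp-12.6. That limits how exactly their folds and ranks can be read.

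Next in order came hsp-12.6, on chromosome IV, one of the short family members and known as a gene downstream of DAF-16, the transcription factor of insulin signalling. It had -3.80, -4.11, -4.61 and -5.51 on preps 1 to 4. This was the widest spread in the family, with prep 4 lowest and prep 1 highest, yet every value was below -3.7. The mean was -4.50 ± 0.75 (SD, n = 4; 95% interval -5.10 to -3.91; limma adjusted p = 6.7e-06), or 22.7-fold lower, the 18th lowest of the named genes.

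The gene after it in the order, hsp-12.3, is also its neighbour on chromosome IV. Its protein is a short family member known for having little chaperone activity of its own in vitro. It had -2.36, -2.88, -2.82 and -3.13 on preps 1 to 4, with prep 4 again lowest and prep 1 highest. The mean was -2.80 ± 0.32 (SD, n = 4; 95% interval -3.17 to -2.43; limma adjusted p = 6.7e-06), or 6.95-fold lower, and 1.24% of the named genes had a lower mean. These 3 genes were also the ones past a 2-fold change (limma treat, adjusted p at most 0.00011), where 4.21% of all items were lower and 4.38% higher.

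The gene hsp-43, on chromosome X, encodes a larger member known from muscle cell junctions and the reproductive tract. Its ratio was -0.61, -0.18, -0.17 and -0.96 on preps 1 to 4, below 0 on every prep but close to 0 on preps 2 and 3. Its mean of -0.48 ± 0.38 (SD, n = 4; 95% interval -0.87 to -0.09) did not pass (limma adjusted p = 0.0501), and it did pass among items on all 4 arrays (adjusted p = 0.048) and with robust moderation (adjusted p = 0.048).

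On the other side of 0, hsp-12.2, on chromosome III, is a further short member with little chaperone activity known in vitro. It had 0.30, 0.64, 1.003 and 0.12 on preps 1 to 4. All were positive, but the highest, on prep 3, stood well apart from the lowest, on prep 4. The mean was 0.52 ± 0.39 (SD, n = 4; 95% interval 0.12 to 0.91), 1.43-fold higher, and only just passed (limma adjusted p = 0.041). It no longer passed without prep 2 (adjusted p = 0.14), without prep 3 (adjusted p = 0.15), without moderation of the variances (adjusted p = 0.15) or with the title code shared by preps 3 and 4 as a random block (adjusted p = 0.089).

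The gene hsp-25, on chromosome X, encodes a protein known from the dense bodies and M-lines of body wall muscle, the structures that anchor its filaments. It had 1.16, 0.97, 1.40 and 0.99 on preps 1 to 4, the tightest set in the family. The mean was 1.13 ± 0.20 (SD, n = 4; 95% interval 0.81 to 1.45; limma adjusted p = 0.00034), or 2.19-fold higher.

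The gene hsp-12.1, on chromosome I, is a short member that, like hsp-12.2, lay on the other side of 0 from hsp-12.3 and hsp-12.6. It had 0.97, 1.71, 1.59 and 1.16 on preps 1 to 4, with preps 2 and 3 above preps 1 and 4. The mean was 1.36 ± 0.35 (SD, n = 4; 95% interval 0.98 to 1.74; limma adjusted p = 0.00030), or 2.56-fold higher.

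The highest ratio of the family was that of hsp-17, on chromosome V, whose protein is known to promote the aggregation of other proteins in vitro rather than to prevent it. Its ratio was 0.93, 1.49, 2.45 and 1.82 on preps 1 to 4, all well above 0, with prep 1 lowest and prep 3 highest. The mean was 1.67 ± 0.64 (SD, n = 4; 95% interval 1.14 to 2.20; limma adjusted p = 0.00057), or 3.19-fold higher, the 740th highest of the named genes. Without moderation it missed the threshold (adjusted p = 0.0502). By limma's treat 0 of the 4 higher genes were past a 2-fold change, and 2, hsp-12.1 and hsp-17, were at an unadjusted p under 0.05. Without prep 1, hsp-17 was past it (adjusted p = 0.0092).

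**Figure D2:**
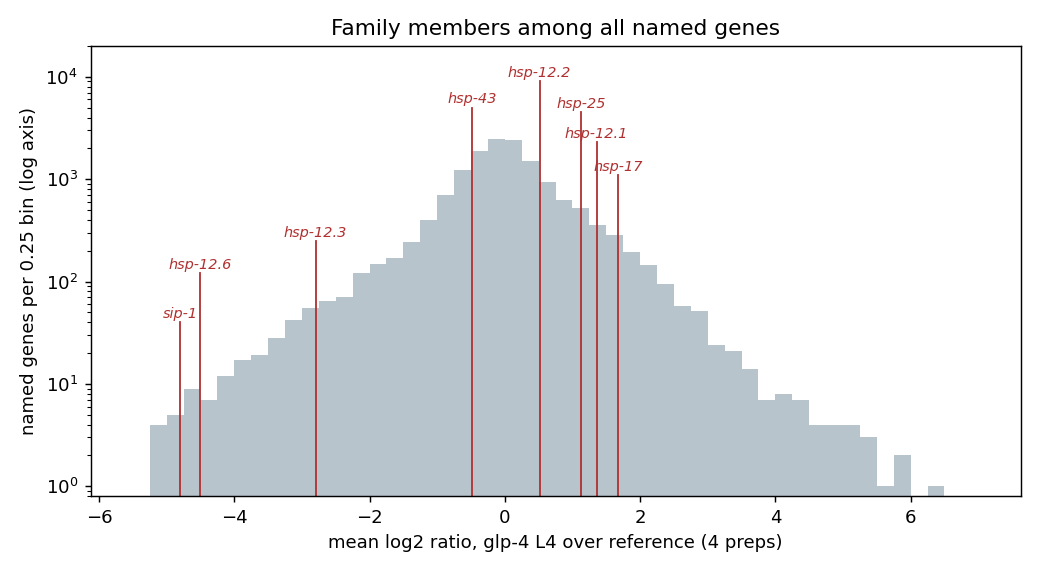
Number of named genes (vertical axis, log scale) per 0.25-wide bin of the mean log2 ratio of glp-4 L4 over reference (horizontal axis), with red lines at the 8 small heat shock protein genes. The lines of sip-1 and hsp-12.6 stand in the thin far-left tail, which holds 37 genes at -4 or less, and the line of hsp-43 lies near the centre.

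Neighbours in this order were set against each other within each prep, 7 gaps in all. The order comes from the same means, so each mean gap is positive by construction, and the exact two-sided sign-flip permutation test used cannot go below p = 0.13 with 4 preps, so no gap could pass. The gap of hsp-12.3 over hsp-12.6 was 1.71 ± 0.50 (SD, n = 4) and that of hsp-43 over hsp-12.3 was 2.32 ± 0.44. Those of hsp-12.2 over hsp-43 and of hsp-25 over hsp-12.2 were 0.995 ± 0.16 and 0.61 ± 0.29. These 4 gaps were positive on 4 of 4 preps (exact permutation p = 0.13 each, adjusted p = 0.219).

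The other 3 gaps were smaller than their own spread. The gene hsp-12.6 lay over sip-1 by 0.30 ± 0.41 (SD, n = 4), on 3 of 4 preps (exact permutation p = 0.25, adjusted p = 0.35). The gap of hsp-12.1 over hsp-25 was 0.23 ± 0.39, on 3 of 4 preps, and that of hsp-17 over hsp-12.1 was 0.32 ± 0.53, on 2 of 4 preps (exact permutation p = 0.5 and adjusted p = 0.5 for both). The mean of each of these 3 gaps was below its SD, and that of each of the first 4 was above it, which describes the spread and is no test of the order.

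The preps did not rank alike for the 2 sides of the family. Prep 4 gave the lowest value for 5 of the 8 genes, among them all 3 that were lower, and prep 3 the highest for 4 of the 8. Prep 1 was lowest for hsp-12.1 and hsp-17 and highest for hsp-12.6 and hsp-12.3. Over all items on 4 arrays, prep 4 was lowest for 22.2% and prep 3 highest for 31.3%. Prep 1 was lowest for 35.5% of all items and highest for 29.8%. The SD of all values was also smallest on prep 1 (0.92) and largest on prep 4 (1.09).

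The genes with the ratios closest to sip-1 on all 4 preps, by Euclidean distance among the named genes on all 4 arrays, were W05F2.3 at -4.74 ± 0.37, trcs-1 at -4.86 ± 0.42 and spn-4, a maternal RNA-binding protein, at -4.63 ± 0.40 (SD, n = 4). Their distances were 0.31, 0.32 and 0.43 log2 units. Closest to hsp-17 were the UDP-glucuronosyltransferase gene ugt-67 at 1.73 ± 0.67, the intermediate filament gene mua-6 at 1.58 ± 0.60 and dct-6 at 1.68 ± 0.54, at distances of 0.17, 0.23 and 0.30. With 4 preps of 1 group, likeness here means a like ratio and no more.

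Markers of germ cells had negative ratios, as the lower genes did, where 24.4% of all items were lower. Of 25 measured oocyte and maternal genes 25 were lower, led by the RNA-binding protein pos-1 at -5.06 ± 0.67 and the egg surface receptor egg-1 at -5.03 ± 0.24 (SD, n = 4), and the list median was between -4.16 and -3.74 on the 4 preps. Of these 25 genes, 5 had a lower mean than sip-1, 7 a lower mean than hsp-12.6 and 20 a lower mean than hsp-12.3. Of 14 general germline genes 14 were lower, led by him-3 at -3.68 ± 0.68 and gld-1 at -3.55 ± 0.33, with a list median between -2.41 and -1.98, and none had a lower mean than sip-1 or hsp-12.6.

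Sperm genes and genes known from dauer or starved larvae were low too, where 24.4% of all items were lower. Of 20 sperm genes 16 were lower and 0 higher, led by msp-77 at -3.86 ± 0.47 and msp-33 at -3.74 ± 0.27, with a list median between -2.78 and -2.07. Many of the lower ones were msp or msd genes, whose calls may not be separate. The 4 that did not pass were spe and fer genes, with means between -0.20 and -0.02. Of 5 genes of dauer or starved larvae 5 were lower, led by the cuticlin cut-1 at -4.14 ± 0.17 and the collagen col-2 at -3.08 ± 0.76, with a list median between -2.76 and -1.90. Like the other lists, this short one was chosen with earlier results of these data known. The part of germ cells or of the missing larval stages in the ratios of sip-1, hsp-12.6 and hsp-12.3 was not tested.

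Somatic markers differed by tissue, where 20.6% of all items were higher and 24.4% lower. Of 21 genes of body wall muscle and its dense bodies 13 were higher and 0 lower, led by troponin I unc-27 at 2.20 ± 0.55 and dim-1 at 1.80 ± 0.20, with a list median between 0.44 and 0.76. The muscle gene hsp-25 had a higher mean than 15 of these 21. This was not particular to it: hsp-12.2 had a higher mean than 10, hsp-12.1 than 17 and hsp-17 than 19. The part of muscle content in these ratios was not tested. Of 11 intestinal genes 10 were higher and 1 lower, led by the transporter pgp-1 at 3.69 ± 0.55 and the esterase ges-1 at 2.57 ± 0.16, with a list median between 1.58 and 2.15. That 1 lower gene was not called without prep 1, 3 or 4.

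The remaining tissue lists were mixed, and their counts stand beside 20.6% of all items higher and 24.4% lower. Of 9 pharyngeal genes 3 were higher and 3 lower (1 lower without prep 4), led by phat-4 at 2.87 and myo-2 at -1.03. Of 9 genes of the spermatheca, uterus and vulva 4 were higher and 1 lower (2 lower without prep 1), led by ule-1 at -3.20 and pes-8 at 2.93. Of 7 genes of epidermal attachment 2 were higher, ifb-1 at 1.30 and mua-3 at 1.21, and 0 lower (1 lower without prep 1). Neurons had 6 of 12 genes lower and 0 higher, led by egl-3 at -1.81 and egl-21 at -0.75, with 3, 2 and 2 lower without preps 1, 2 and 4 and 1 higher without prep 1. Early embryonic genes had 3 of 11 higher and 3 lower (1 higher without prep 2), led by sdz-6 at 2.75 and pal-1 at -1.96. In every marker list with 0 genes called in a direction by limma, 0 were also called there at an unadjusted p under 0.05.

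Other small heat shock genes outside the 10 included the hsp-16 cluster on chromosome V, where hsp-16.1, hsp-16.48, hsp-16.49 and hsp-16.11 follow each other. The proteins of hsp-16.1 and hsp-16.11 are known to be identical, as are those of hsp-16.48 and hsp-16.49, so that probes of one copy can bind transcripts of the other. Of 7 such family genes measured, 3 were higher, 2 lower and 2 did not pass, with a median of 0.09, and the 3 higher ones were past a 2-fold change. Over all items, 20.6% were higher, 24.4% lower and 4.38% higher past 2-fold. The higher ones include hsp-16.1 and hsp-16.11, whose calls may not be separate because their probes may read the same transcripts. The other higher one, hsp-16.49, differed from its copy hsp-16.48, which did not pass. Whether each probe of that pair reads its own gene was not tested.

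The gene hsp-16.1 had 1.04, 2.20, 3.10 and 3.27 on preps 1 to 4, with a mean of 2.40 ± 1.02 (SD, n = 4; limma adjusted p = 0.00059). The values of hsp-16.11 were 1.21, 2.25, 2.85 and 3.21, with a mean of 2.38 ± 0.87 (limma adjusted p = 0.00031). Both were lowest on prep 1 and highest on prep 4, and the difference between them within a prep was 0.03 ± 0.18. The labels name no growth temperature, and its part in the ratios of these and other heat-inducible genes was not tested.

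The copies hsp-16.48 and hsp-16.49 did not give like values. The probe of hsp-16.49 had 0.93, 2.13, 2.64 and 3.02 on preps 1 to 4, with a mean of 2.18 ± 0.91 (SD, n = 4; limma adjusted p = 0.00060), close to hsp-16.1 and hsp-16.11. The probe of hsp-16.48 had 0.45, -0.37, -1.22 and -0.23, with a mean of -0.34 ± 0.68 (limma adjusted p = 0.28). Its values crossed 0 and did not overlap those of hsp-16.49. The difference of hsp-16.49 over hsp-16.48 within a prep was 0.48, 2.49, 3.86 and 3.26, with a mean of 2.52 ± 1.47 (exact sign-flip permutation, two-sided, p = 0.13, which is the smallest value 4 preps allow).

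The family genes hsp-16.20 and hsp-16.21, also on chromosome V, lay below 0. The first had -0.81, -0.80, -1.60 and -1.58 on preps 1 to 4, with a mean of -1.20 ± 0.45 (SD, n = 4; limma adjusted p = 0.0011), and the second had -0.16, -0.39, -0.84 and -0.54, with a mean of -0.48 ± 0.29 (limma adjusted p = 0.034). All 8 values were negative, and hsp-16.20 was the lower one on every prep. The gene ZK1128.7 had a mean of 0.09 ± 0.18. Without prep 2, 3 or 4, 1 of these genes was lower instead of 2.

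**Figure D3:**
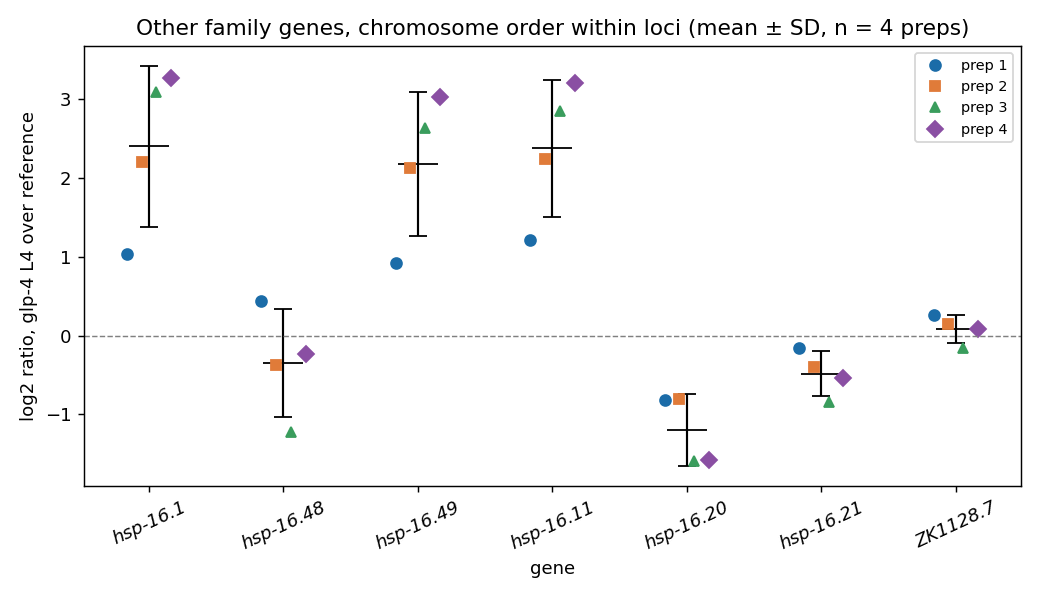
Log2 ratio of glp-4 L4 over reference (vertical axis) for 7 small heat shock family genes outside the 10. Points are the 4 preps, and bars are the mean ± SD. The points of hsp-16.1, hsp-16.49 and hsp-16.11 lie between 0.93 and 3.27, each lowest on prep 1, while those of hsp-16.48 lie between -1.22 and 0.45.

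The genes beside the members on their chromosomes had ratios of their own. In RefSeq gene order, hsp-12.3 and hsp-12.6 stand side by side between F38E11.9, with a mean of 0.57 ± 0.42, and cutl-17, with 0.24 ± 0.42 (SD, n = 4). The nearest measured genes of sip-1 were taf-11.3 at 0.01 ± 0.31 and sly-1, a vesicle transport gene, at 0.85 ± 0.22. The gene hsp-12.1 lay between rtel-1 at -0.72 ± 0.09 and lst-1 at -1.16 ± 0.45, so here the member was positive and both neighbours negative on every prep.

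The gene hsp-17 lay between F52E1.5 at 0.09 ± 0.13 and gcy-7 at -0.33 ± 0.33, and hsp-25 between ipp-5 at 0.31 ± 0.26 and pak-1 at 0.18 ± 0.19. The gene hsp-43 lay between C14F11.4 at 2.34 ± 0.52 and rml-3 at 1.80 ± 0.65, both above it on every prep. For hsp-12.2 the neighbours were C14B9.2 at 1.55 ± 0.56 and phka-1 at 0.21 ± 0.25. These neighbours were chosen by position after the members' values were seen, and the differences were not tested.

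**Figure D4:**
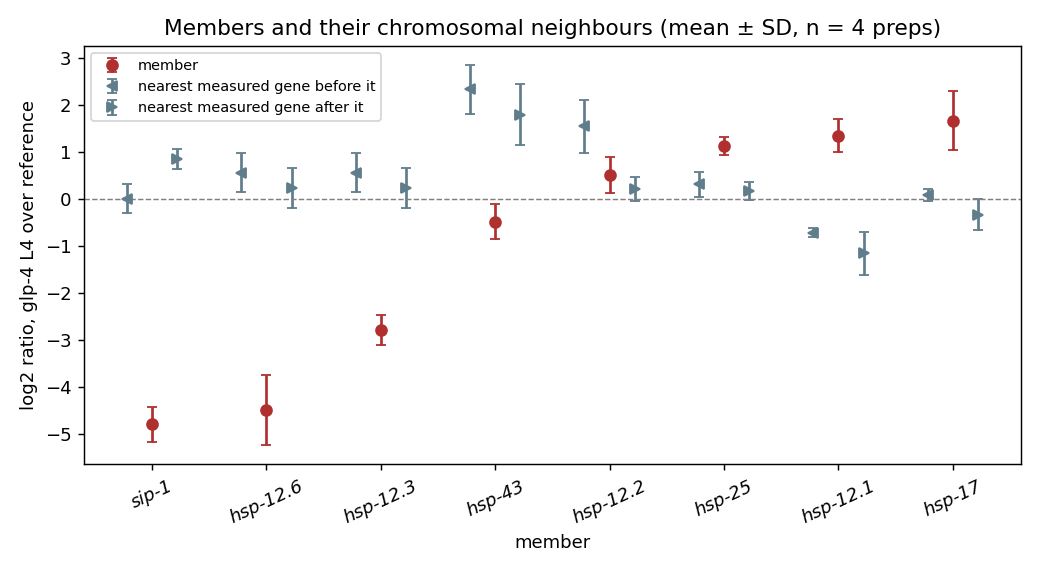
Mean ± SD over 4 preps of the log2 ratio of glp-4 L4 over reference (vertical axis) for each small heat shock protein gene (red) and the nearest measured gene before and after it on the chromosome (grey triangles). The neighbours of sip-1, hsp-12.6 and hsp-12.3 lie between 0.01 and 0.85, while these genes lie at -2.80 or below.

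The genes of the other chaperone lists, the HSP70 system among them, showed no ratio as low as those of sip-1, hsp-12.6 and hsp-12.3. Of 8 measured genes of the HSP70 and HSP110 families, 5 were higher and 2 lower (list median 1.02), beside 20.6% and 24.4% of all items. The called ones were led by the heat-inducible HSP70 gene F44E5.5 at 1.73 ± 0.77 and the endoplasmic reticulum chaperone hsp-3 at 1.26 ± 0.31 (SD, n = 4). The constitutive cytosolic HSP70 gene hsp-1 was lower at -0.52 ± 0.14. Without prep 2 or prep 4, 1 gene of the list was lower instead of 2. Heat-inducible hsp-70, among the 5 higher genes at 0.88 ± 0.48 (limma adjusted p = 0.0065), was called on the mean of 2 unlike probes. Its 2 probes averaged 0.33 ± 0.75 and 1.43 ± 0.53 and differed most on prep 3, at -0.53 and 1.54.

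Of 10 genes of HSP90 and its co-chaperones, 2 were higher and 0 lower, beside 20.6% and 24.4% of all items. The higher ones were unc-23 at 1.10 ± 0.27 and the myosin chaperone unc-45 at 0.79 ± 0.40. The list median was 0.01, and 4 genes were higher without prep 1. The HSP90 gene hsp-90 itself had -1.40, -0.06, 0.74 and 0.03 on preps 1 to 4 and did not pass (limma adjusted p = 0.67). Of 6 subunits of the CCT chaperonin, which folds actin and tubulin, 1 was lower, cct-7 at -0.38 ± 0.15, and 0 were higher. That call was lost without any 1 prep and with arrays centred on their medians, and 1 subunit was higher without prep 1. At an unadjusted p under 0.05 there were still 0 lower genes in the HSP90 list and 0 higher ones in the CCT list.

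Of 23 DnaJ proteins, the HSP40 partners of HSP70, 7 were higher and 2 lower (list median 0.16), beside 20.6% and 24.4% of all items. The called ones were led by dnj-7 at 1.89 ± 0.45 and dnj-13 at 1.23 ± 0.55, and 4 were higher without prep 3 or prep 4. Of 4 mitochondrial chaperones and proteases 1 was higher, dnj-21 at 0.77 ± 0.40, and 2 were lower, led by the mitochondrial HSP70 gene hsp-6 at -0.87 ± 0.23. The lists overlap: dnj-21 is also counted among the DnaJ proteins and hsp-6 among the HSP70 genes. Without prep 1, 2 genes of the mitochondrial list were higher, and without prep 2 or prep 4, 1 was lower. Prep 1 gave the lowest value for 36 of 48 genes of these chaperone lists on all 4 arrays, where it did for 35.5% of all items, and prep 3 the highest for 38 of the 48, where it did for 31.3% of all items.

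Of 15 regulators of the heat shock response and of insulin signalling, 1 was higher and 6 lower (list median -0.42), beside 20.6% of all items higher and 24.4% lower. The heat shock factor gene hsf-1 had -1.53, -1.13, -0.43 and -0.85 on preps 1 to 4, all negative, with a mean of -0.98 ± 0.46 (SD, n = 4; limma adjusted p = 0.0033), and the kinase gene sgk-1 was higher at 1.21 ± 0.22. Without prep 1, 2 regulators were higher, and without prep 2 and prep 4, 2 and 3 were lower, while 4 were lower with arrays centred on their medians.

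Genes downstream of DAF-16, the group to which hsp-12.6 is known to belong, also lay on both sides. Of 11, 4 were higher and 6 lower (list median -0.43), beside 20.6% and 24.4% of all items. The late embryogenesis abundant gene lea-1 had -2.87 ± 0.40 and dod-3 had -2.48 ± 0.44 (SD, n = 4), while the lysozyme gene lys-7 had 2.06 ± 0.33 and the superoxide dismutase gene sod-3 had 0.71 ± 0.16. These last 2 were named after their values were seen. Without prep 2, 3 or 4, 3 genes were lower instead of 6.

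**Figure D5:**
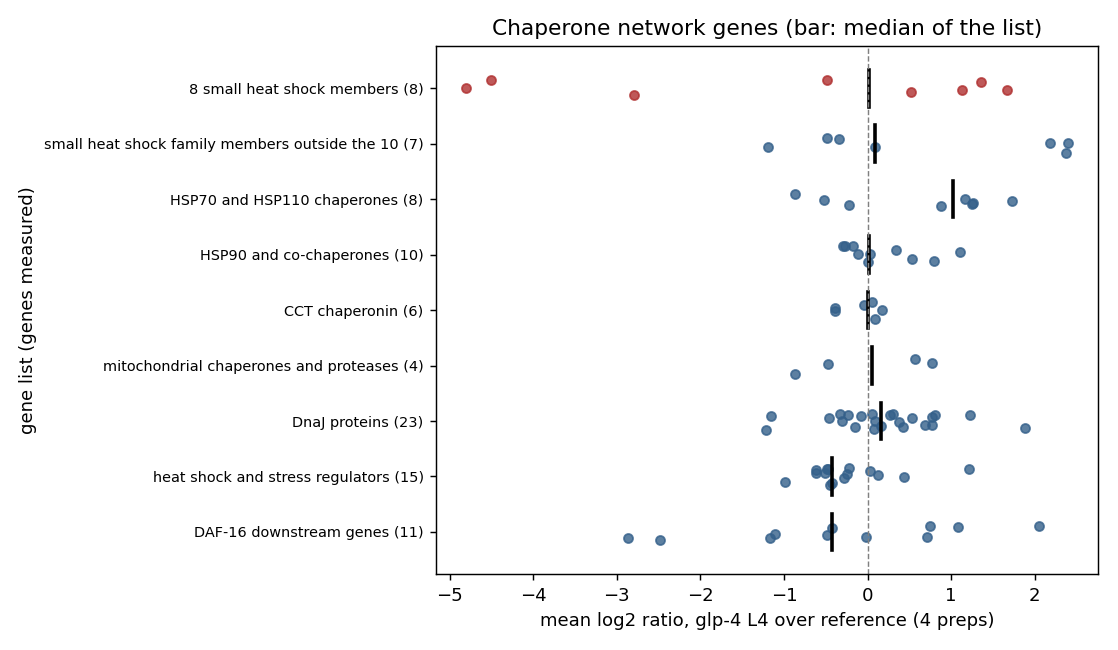
Mean log2 ratio of glp-4 L4 over reference over 4 preps (horizontal axis) for the 8 small heat shock protein genes (red) and the genes of 8 related lists (blue), with the median of each as a black bar. The red points spread from -4.80 to 1.67, and no blue point lies below -2.87.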

How the data were processed

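The authors deposited 1 log2 ratio between channels per probe and array. Base 2 follows from the values: raising 2 to them gave whole thousandths, within 0.01, for 100% of the ratios under 20 on every array. Scanner, background correction, dye normalization and centring: not given in the sources used here. Probes were named from an old platform annotation, updated through a RefSeq gene table (WBcel235). Of 21632 probes, 16450 had 1 symbol, 247 several and 4935 none here. Where a gene had several probes, their mean on an array was used.

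A test against 0 was run on 19989 items, each a named gene or an unnamed probe measured on 3 or more arrays, by limma 3.58.1 (R 4.3.3) with lmFit, eBayes and two-sided p-values adjusted after Benjamini and Hochberg (threshold 0.05). A second test, treat, asked for more than a 2-fold change. The spread of the reference, which is 1 counterpart, is not in any test. The steps were tested on simulated data. Gene lists are described by counts and medians. The alternatives were centred or scaled arrays, items on all 4 arrays, each prep left out, the title code of preps 3 and 4 as a random block (correlation 0.37) or these preps averaged, a fit per probe, no or robust moderation, a stricter threshold and turned signs.

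Named were all members, the 3 named genes nearest to the highest and to the lowest member, and from each list up to 2 called genes with the largest absolute mean, 1 sign and values on all 4 arrays. Members and lists were chosen with earlier results of these data known. Outside this rule, and after their values were seen, hsp-16.48, hsp-16.49, hsp-16.20, hsp-16.21, ZK1128.7, hsp-1, hsp-70, hsp-90, lys-7 and sod-3 were named too, as were the genes beside the members.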

Additional observations from a re-analysis of the deposited data

Results flagged for a closer look

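Of 34 sets of 4 values examined for a prep standing apart from the others by Dixon's ratio (8 members, 7 further family genes and 19 list medians), 1 stood out, and chance gives about 1 in 20. The median of the epidermal attachment list was 0.39 on prep 1, against 0.03 to 0.08 on preps 2 to 4. No small heat shock gene stood out in this way.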

How the results depend on the processing

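None of the 8 members changed direction under the 13 settings other than turning every sign, which were run gene by gene for these 8. This was largely fixed in advance. Each of the 8 had 1 sign on all 4 preps, so leaving out, averaging or blocking preps could not turn a mean. The settings for moderation, threshold, probes and items on all 4 arrays left the means as they were. Only centring or scaling could have turned one. Turning every sign gives 4.80, 4.50, 2.80 and 0.48 for sip-1, hsp-12.6, hsp-12.3 and hsp-43 and -0.52, -1.13, -1.36 and -1.67 for hsp-12.2, hsp-25, hsp-12.1 and hsp-17. With the title code as a random block, at an adjusted p under 0.01, or without prep 2 or 3, 3 members were higher instead of 4. On items on all 4 arrays or with robust moderation, 4 were lower instead of 3. Without moderation 2 members were higher, and 2524 items were higher and 2781 lower instead of 4113 and 4874. At an adjusted p under 0.01, 3093 items were lower. Leaving out 1 prep gave 0 to 1 members higher past 2-fold. For the lists it gave 1 to 3 lower among the other small heat shock genes, 1 to 2 lower for HSP70 and HSP110, 2 to 4 higher for HSP90 and co-chaperones, 0 to 1 higher and 0 lower for CCT, 1 to 2 in each direction for mitochondrial chaperones, 4 to 9 higher for DnaJ proteins, 1 to 2 higher and 2 to 8 lower for regulators, and 3 to 5 lower for DAF-16 downstream genes. Centring the arrays left 0 CCT genes lower. The 7 gaps kept their sign without each prep and on centred and scaled arrays. This is no test of the order, which comes from the same means. A gap that was positive on all 4 preps could not change sign in this way, and centring cancels in a difference within a prep. No paired analysis was possible because all 4 preps belong to 1 group. The causes of these changes were not tested.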
